A study of Sus scrofa with 16 samples.

Results

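The transcripts described here are those of 2 transforming growth factor beta ligands, TGFB1 and TGFB3, of SMAD4 and of CTGF in pig conceptuses. They were chosen by gene symbol in the annotation of the array: 1 probe each for TGFB1 (probe 26), TGFB3 (probe 99) and SMAD4 (probe 945) and 2 probes for CTGF (probes 6 and 977), hence 4 of the 638 named genes and 5 of the 1015 probes on the array. CTGF is also known as CCN2. All 5 entered every test of the reported fit.

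The study profiled RNA of whole pig embryos in the days before attachment to the uterus, when the conceptus (the embryo with its membranes) changes from a sphere to a long thread. The labels gave 4 stages by shape and length, with 4 arrays each. Small spherical embryos measured 1 to 5 mm and large spherical ones 6 to 11 mm. Tubular embryos measured 13 to 45 mm, and filamentous ones exceeded 100 mm. Amplified RNA carrying phosphorus-32 was read on a cDNA macroarray, a membrane bearing PCR products chosen because embryos express them. All 16 samples shared this treatment, and the labels named no breed, age, dam or agent, nor whether an array held 1 embryo or several. The p-values therefore measure only the spread between these samples. In whole conceptuses, fewer cells of a type and less RNA per cell cannot be told apart.

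TGF beta ligands are secreted in a latent form, are released by proteases and integrins, and then bind paired serine/threonine kinase receptors at the cell surface. The receptors phosphorylate receptor SMADs, which join the common partner SMAD4 and enter the nucleus to regulate target genes, among them CTGF, a secreted matrix-associated protein. In the pig, ligands and receptors of this family are known from both conceptus and uterine epithelium at the time of attachment.

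Intensities are given as deposited, on a linear scale without a stated unit, and cannot be compared between probes. Array medians lay between 62.8 and 71.4. The number of arrays limits the precision. Across all probes, most arrays of the 3 later stages were not matched to their own stage. Only 6 of 16 arrays correlated best with the mean of the other arrays of their stage, 4 of them small spherical. Each probe's mean over all 16 arrays was subtracted first, which by itself pulls such correlations below 0. With the others of their stage, the large spherical arrays had -0.318 to -0.105 and tubular replicate 1 had -0.371. A negative value alone therefore does not show that arrays of a stage disagree. Whether the stages were alike or the arrays varied within a stage was not tested. The 4 arrays numbered 1, 1 per stage, differed from those numbered 2 to 4 of the same stage in 172 of 1014 probes tested (17%, limma, adjusted p under 0.05). Of 10 listed trophectoderm markers 4 were measured, with a summed intensity of 336 to 478, 376 to 484, 399 to 468 and 375 to 501 in order of stage from small spherical to filamentous. KRT18, a keratin, makes up most of that sum, with stage means of 250 to 275, while PLAC1, a gene of placental trophoblast and another of the 4, averaged 12.1 ± 4.2, 24.6 ± 3.26, 30.4 ± 6.14 and 33.7 ± 10.9 (SD, n = 4). The remaining keratins also had their lowest mean in small spherical embryos. KRT19 averaged 93.6 ± 26.6, 118 ± 22.5, 107 ± 16.8 and 135 ± 30.6, and KRT8 19.5 ± 4.6, 24.1 ± 0.71, 24.1 ± 6.4 and 23.9 ± 8.5. Yolk sac endoderm markers (4 of 9 measured) summed by stage to 189 to 327, 240 to 313, 269 to 308 and 303 to 455. Among them APOA1 probe 138 averaged 120, 97, 105 and 172, and RBP4 probe 134 35.9, 49.2, 45.7 and 64.2. AFP averaged 58, 69, 71 and 56, and TF 26.6, 24.4, 25.3 and 11.5. Mesoderm markers (3 of 6 listed symbols measured) summed to 59.7 to 69.8, 44.1 to 75.8, 55.3 to 90.1 and 79.8 to 121. T was also listed as TBXT and KDR as FLK1. VIM averaged 35.8, 28.9, 40.4 and 61.2, KDR 18.3, 20.8, 22.9 and 28.2, and T 11.9, 10.2, 9.74 and 10.8. Uterine epithelium (2 of 6 measured) summed to at most 42.7 on any array. CD3E, the 1 measured marker of maternal blood, read at most 4.34, and no epiblast marker was measured. The part of these cell types in the results below was not tested.

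**Figure D1:**
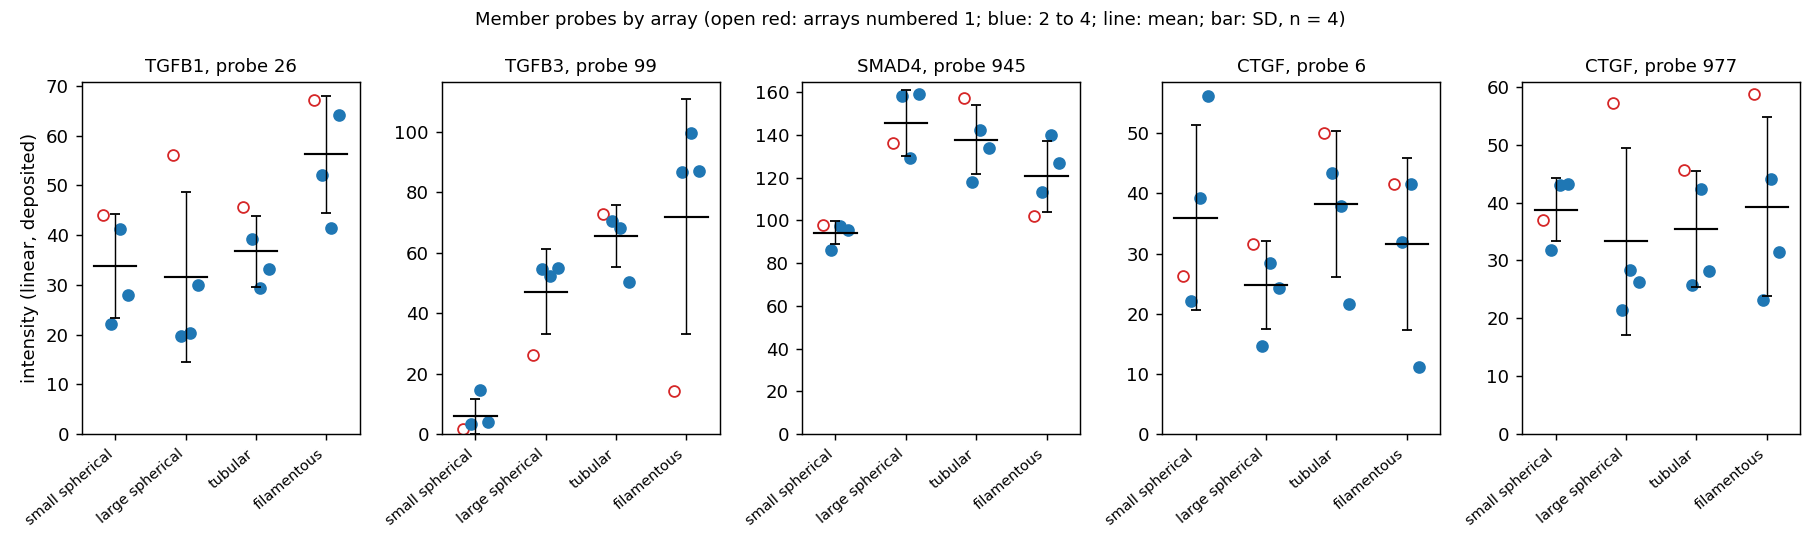
Deposited intensity (vertical axis, linear scale, from 0) of each member probe on each of the 16 arrays by stage (horizontal axis); open red circles are the arrays numbered 1, filled blue circles those numbered 2 to 4, lines are means and bars SD (n = 4). TGFB3 is at most 14.5 on the small spherical arrays, and SMAD4 is above 97.7 on all 12 later arrays.

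The ligand TGFB3 was low in small spherical embryos and higher in each later stage. It read 1.79, 3.2, 14.5 and 3.91 on the 4 small spherical arrays (replicates 1 to 4). On the large spherical arrays it read 26.1, 54.7, 52.4 and 55.0. The tubular values were 72.8, 70.5, 68.2 and 50.2, and the filamentous ones 14.2, 86.8, 99.5 and 86.9. All large spherical and tubular arrays lay above every small spherical one. The filamentous group overlapped the small spherical one through a single pair of arrays, filamentous replicate 1 (14.2) and small spherical replicate 3 (14.5).

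TGFB3 rose between small and large spherical embryos, by a log2 difference of 3.41 ± 0.62 SE (10.6-fold, 95% interval 4.23 to 26.6, limma, adjusted p = 0.0212). At this step 0.394% of all 1014 probes passed, and in 3.85% the large spherical arrays all lay above the small spherical ones. Tubular embryos were 15.2-fold above small spherical ones (log2 3.93 ± 0.62, adjusted p = 0.00455, with 0.394% of probes past the threshold), and filamentous embryos 13.5-fold (log2 3.75 ± 0.62, adjusted p = 0.00765, with 0.888% of probes). These 3 comparisons share the 4 small spherical arrays. TGFB3 was at rank 3 of 1014 probes by p in each of them. With 10 added to every value before log2, which keeps the order of the values, the folds were 3.65, 4.93 and 4.65 in the same order of stages. The size of the folds therefore depends on how the dim small spherical values are treated.

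After the large spherical stage, no further change of TGFB3 passed the test. In order of stage it averaged 5.86 ± 5.86, 47 ± 14, 65.4 ± 10.3 and 71.8 ± 38.9 (SD, n = 4). The log2 difference was 0.52 from large spherical to tubular (95% interval -0.80 to 1.85) and -0.18 from tubular to filamentous (-1.51 to 1.14), so that a 2-fold change in either direction lies within the second interval. The adjusted p was 0.999 and 0.994 (limma), and 0% of probes passed in either comparison (3.25% and 3.35% at an unadjusted p below 0.05). From large spherical to filamentous the difference was 0.34 (-0.98 to 1.67, adjusted p = 0.983, 0% of probes), and 1.01 without filamentous replicate 1 (adjusted p = 0.955). The linear means rose in the order small spherical, large spherical, tubular, filamentous. On the log2 scale of the test, the filamentous mean lay below the tubular one (geometric means of 57.1 and 64.7). Only the small spherical mean, the lowest on either scale, differed from its neighbour beyond the spread.

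TGFB3 lay near the low end of the signal range on the small spherical arrays. The 25th percentile of those arrays was 31.6 to 34.4, and only 2, 2, 15 and 3 distinct values of the array lay below that of TGFB3. With 10 added before log2, the differences from small spherical embryos were 1.87 ± 0.38 in large spherical (adjusted p = 0.03, limma), 2.30 ± 0.38 in tubular (0.00383) and 2.22 ± 0.38 in filamentous embryos (0.00597). The call at this step was lost without small spherical replicate 1 (log2 2.99, adjusted p = 0.0639), 2 (3.27, 0.103) or 4 (3.37, 0.067). It was also lost when large spherical replicate 2 (3.31, 0.0699), replicate 3 (3.33, 0.0708) or replicate 4 (3.31, 0.073) was left out, and with only the 2 stages in the fit (0.0608). The adjusted p ran from 0.00148 to 0.103 over 27 settings, and TGFB3 passed in 20 of them. The difference of tubular from small spherical passed in all 27 (0.000436 to 0.0255), and that of filamentous from small spherical in 26, the exception being the fit of those 2 stages alone (0.143). A setting without both small spherical replicate 3 and filamentous replicate 1 is not counted here, since those arrays hold the only overlapping TGFB3 values.

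**Figure D2:**
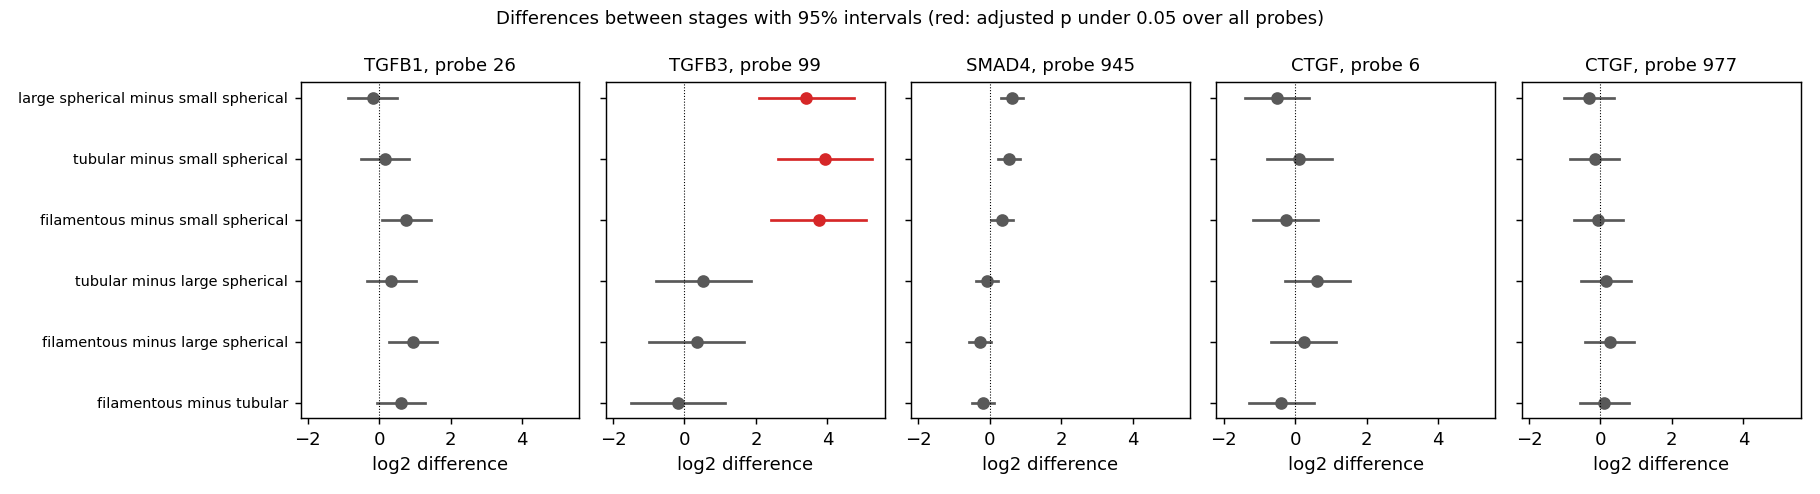
Difference between stages on the log2 scale (horizontal axis) with its 95% interval for each member probe and each of the 6 pairs of stages (vertical axis); red marks adjusted p under 0.05 over 1014 probes, grey the others. Red appears only in the TGFB3 panel, for the 3 comparisons with small spherical embryos, at 3.41, 3.93 and 3.75.

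TGFB3 also differed by array number. On the arrays numbered 1 it was lower than on the others of the same stage by a log2 difference of -1.29 ± 0.39 (limma, adjusted p = 0.0368), where 9.17% of probes were lower past the threshold. It read lower on replicate 1 in 3 stages and not in tubular embryos, where replicate 1 read 72.8 and the others 50.2 to 70.5. On the 12 arrays numbered 2 to 4 alone, the large spherical difference was 3.25 ± 0.44 (adjusted p = 0.00485), the tubular one 3.46 ± 0.44 (0.00348) and the filamentous one 4.00 ± 0.44 (0.000882).

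TGFB1, the best studied ligand of the family, had its highest mean in filamentous embryos, and none of its differences passed the test. It read 44.1, 22.2, 41.2 and 27.9 on the small spherical arrays. The large spherical values were 56.2, 19.7, 20.4 and 30.0, and the tubular ones 45.6, 39.2, 29.3 and 33.1. On the filamentous arrays it read 67.2, 52.1, 41.5 and 64.2. Of the 4 filamentous arrays 3 lay above every small spherical and tubular array and 2 above every large spherical one, and no pair of stages was free of overlap. The lowest small and large spherical values, 22.2 and 19.7, lay below the 25th percentile of every array (28.4 to 34.7).

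In rising order, TGFB1 averaged 31.6 ± 17.1 (large spherical), 33.9 ± 10.5 (small spherical), 36.8 ± 7.15 (tubular) and 56.2 ± 11.8 (filamentous; SD, n = 4). The 3 lower means lay within each other's spread. The difference of filamentous from large spherical embryos was 0.95 ± 0.32 on the log2 scale (95% interval 0.27 to 1.62, unadjusted p = 0.00934, adjusted p = 0.677, limma), from small spherical embryos 0.76 ± 0.32 (adjusted p = 0.274) and from tubular embryos 0.61 ± 0.32 (adjusted p = 0.994). By unadjusted p below 0.05, 6.02% of all probes differed between filamentous and large spherical embryos. The F test over the 4 stages gave an adjusted p of 0.479 for TGFB1, 0.0106 for TGFB3 and 0.149 for SMAD4 (limma), with 0.394% of probes past the threshold.

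TGFB1 moved with array number in the opposite direction to TGFB3. It read highest on replicate 1 in every stage, by 0.67 ± 0.20 on the log2 scale over the others (limma, adjusted p = 0.0289), where 7.79% of probes were higher past the threshold. On the 12 arrays numbered 2 to 4, filamentous embryos differed from large spherical ones by 1.18 ± 0.27 (adjusted p = 0.222) and from small spherical ones by 0.81 ± 0.27 (0.225). With the trend along probe number removed the latter difference was 0.32 ± 0.28 (0.684).

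**Figure D3:**
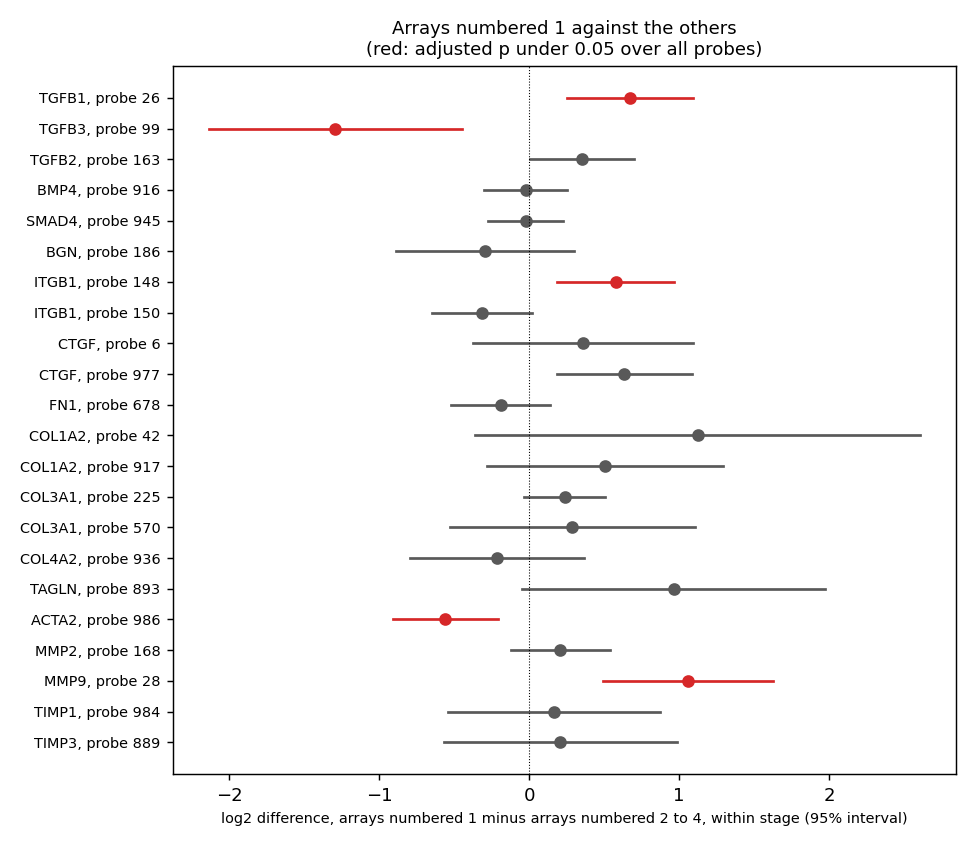
Difference of the arrays numbered 1 from those numbered 2 to 4 within a stage, on the log2 scale (horizontal axis) with 95% interval, for the 5 member probes and 17 pathway probes (vertical axis); red marks adjusted p under 0.05 over 1014 probes. TGFB1 lies at 0.67 and TGFB3 at -1.29, and SMAD4 at -0.02.

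SMAD4, the shared partner of receptor SMADs, read higher in the later stages without a call. Its small spherical values were 97.7, 86.1, 97.5 and 95.5, a narrow range. The large spherical arrays read 136, 158, 129 and 159, and the tubular ones 157, 118, 142 and 134. The filamentous values were 102, 113, 140 and 127. All 12 later arrays lay above the highest small spherical one, and the 3 later stages overlapped each other. Among all probes, the higher stage was free of overlap with small spherical embryos in 3.85%, 4.54% and 4.54% for the 3 later stages in order.

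SMAD4 averaged 94.2 ± 5.47 in small spherical, 120 ± 16.4 in filamentous, 138 ± 15.9 in tubular and 145 ± 15.4 in large spherical embryos (SD, n = 4), in that rising order. The large spherical difference was 1.54-fold (95% interval 1.24 to 1.91, log2 0.62 ± 0.15, limma, adjusted p = 0.0669), at rank 11 of 1014 probes by p. The tubular difference was 1.46-fold (1.17 to 1.81, adjusted p = 0.115) and the filamentous one 1.27-fold (1.02 to 1.58, adjusted p = 0.283). Between later stages the log2 difference was -0.08 from large spherical to tubular (-0.39 to 0.23) and -0.19 from tubular to filamentous (-0.51 to 0.12). From large spherical to filamentous it was -0.27 (-0.59 to 0.04, adjusted p = 0.722), and 3 of 4 filamentous arrays lay below every large spherical one.

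The arrays numbered 1 differed from the others by -0.02 ± 0.12 on the log2 scale for SMAD4 (adjusted p = 0.913, limma). It passed at the step to large spherical in 2 of 29 settings, with a variance trend and robust prior (adjusted p = 0.0482) and with small spherical replicate 3 and filamentous replicate 1 both left out (0.0468), over a range of 0.0468 to 0.304. For tubular against small spherical it passed in 1 of 29, with array weights (0.0392).

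CTGF, the target gene, showed no difference between stages past the threshold on either probe. Probe 6 read 26.2, 22.2, 39.3 and 56.2 in small spherical and 31.6, 14.7, 28.4 and 24.3 in large spherical embryos. It read 50.1, 43.4, 37.9 and 21.7 in tubular and 41.6, 31.9, 41.5 and 11.2 in filamentous embryos. The 25th percentile of the arrays was 28.4 to 34.7, and probe 6 had its lowest value in each stage below that range. Every pair of stages overlapped. Its stage means were 36 ± 15.3, 24.7 ± 7.33, 38.3 ± 12.1 and 31.5 ± 14.3 (SD, n = 4), each within the spread of its neighbours in order of level.

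Probe 977 of CTGF read 37.0, 31.8, 43.1 and 43.2 in small spherical and 57.2, 21.4, 28.4 and 26.2 in large spherical embryos. It read 45.6, 25.7, 42.3 and 28.2 in tubular and 58.7, 23.2, 44.0 and 31.4 in filamentous embryos. In the 3 later stages replicate 1 was the highest array. Its means were 38.8 ± 5.5, 33.3 ± 16.2, 35.4 ± 9.97 and 39.3 ± 15.5, all within each other's spread. On the arrays numbered 1 it was higher by 0.63 ± 0.21 on the log2 scale (limma, adjusted p = 0.0539).

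As reported, the largest differences of CTGF were between tubular and large spherical embryos on probe 6, 0.62 on the log2 scale (95% interval -0.28 to 1.53), and between large and small spherical embryos on the same probe, -0.50 (-1.41 to 0.40). On probe 977 the same 2 differences were 0.16 (-0.53 to 0.85) and -0.32 (-1.01 to 0.37). The intervals of both probes hold 0 in all 6 comparisons, and they also hold changes of 1.5-fold. For filamentous against small spherical embryos the difference was -0.27 (-1.17 to 0.64) on probe 6 and -0.05 (-0.74 to 0.64) on probe 977. With the trend along probe number removed it was -0.98 ± 0.43 on probe 6 (unadjusted p = 0.0377, adjusted p = 0.326, limma) and -0.15 ± 0.33 on probe 977. The F test gave an adjusted p of 0.897 and 0.992 (limma). Across the 16 arrays the log2 values of the 2 probes had a Pearson correlation of 0.547 and a Spearman correlation of 0.538, a description over arrays that share stages and array numbers.

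Other genes of the pathway came from a list of 85 symbols, of which 14 were measured by 17 probes. The measured ones were 2 of 15 ligands, 2 of 26 genes of latency, activation and inhibition, and 10 of 24 symbols of known targets. Among those 24, CCN2 is the member CTGF, not counted again here, and CCN1 and CYR61 name the same gene. None of the 11 receptors or 9 other signal mediators listed was measured. In each of the 6 comparisons 0 of the 17 probes passed, higher or lower (limma, smallest adjusted p = 0.223). At an unadjusted p below 0.05 there were 7 of the 102 differences (6.86%), against 8% of the 6084 differences over all probes, so the share was not above the background; the values of COL4A2, MMP2 and COL3A1 given further on include these 7. The median log2 difference of the 17 probes from small spherical embryos was -0.16, -0.04 and -0.07 in the 3 later stages in order, beside -0.03, -0.06 and -0.03 over all probes. Between later stages it was 0.12 from large spherical to tubular (13 of 17 higher, beside -0.04 and 42% higher over all probes), 0.04 from large spherical to filamentous (11 of 17, beside -0.01 and 47.4%) and -0.03 from tubular to filamentous (7 of 17, beside 0.02 and 54.1%).

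Among the other ligands, TGFB2, the remaining TGF beta isoform, had no difference past the threshold. In order of stage it averaged 97.8 ± 18.5, 84.9 ± 11.8, 88.6 ± 25.7 and 78.2 ± 18.4 (SD, n = 4). Its largest difference from small spherical embryos was -0.34 on the log2 scale (95% interval -0.82 to 0.15, adjusted p = 0.551, limma). BMP4, a bone morphogenetic protein that signals through its own receptors and shares SMAD4, averaged between 71.1 and 77.4 in the 4 stages, with differences from small spherical of -0.13, -0.04 and -0.07.

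The probes for release and sequestration of ligand were ITGB1, an integrin subunit, and BGN, the matrix proteoglycan biglycan that binds TGF beta. On probe 148 ITGB1 averaged 18.3 to 27.8 and on probe 150 it averaged 20.8 to 25 over the stages, and the 2 probes had differences of opposite sign against small spherical embryos in all 3 comparisons. BGN averaged 15.3 to 21. The F test adjusted p was 0.822, 0.919 and 0.987 for these 3 probes (limma).

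Of the known targets, COL4A2, a chain of basement membrane collagen, was lowest in large spherical embryos. It read 20.9, 44.6, 20.3 and 56.2 on the small spherical arrays and 24.3, 21.4, 16.4 and 12.8 on the large spherical ones. The tubular values were 27.5, 26.7, 40.1 and 39.6, and the filamentous ones 33.0, 40.6, 51.6 and 28.8. All tubular and filamentous arrays lay above every large spherical one, as in 1.18% and 2.86% of all probes. The log2 difference was -0.82 ± 0.33 from small to large spherical (limma, adjusted p = 0.362), 0.86 ± 0.33 from large spherical to tubular (0.999) and 1.05 ± 0.33 from large spherical to filamentous (0.61).

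MMP2, a gelatinase, averaged 88.8 ± 13.2, 79.7 ± 14.4, 114 ± 26.2 and 110 ± 14.7 in order of stage. It was higher than in large spherical embryos by 0.50 ± 0.20 in tubular (adjusted p = 0.999) and by 0.48 ± 0.20 in filamentous embryos (0.722, limma). FN1, fibronectin, averaged 147 ± 15.1, 145 ± 36.3, 155 ± 19.6 and 191 ± 34.1. The difference of filamentous from small spherical embryos was 0.37 on the log2 scale (95% interval -0.05 to 0.79).

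The collagen genes with 2 probes did not give a single picture. COL3A1, a fibrillar collagen, differed from small spherical embryos by -1.18 ± 0.46 in tubular (limma, adjusted p = 0.276) and -1.24 ± 0.46 in filamentous embryos (0.223) on probe 570, and by 0.14 and 0.15 on probe 225. Small spherical replicate 4 read 56.2 on probe 570 and the other 3 small spherical arrays 14.5 to 17.3. Without that array the differences on probe 570 were -0.72 in tubular and -0.78 in filamentous embryos. COL1A2, another fibrillar collagen, had differences in filamentous embryos of -1.47 ± 0.90 on probe 42 and -0.38 ± 0.47 on probe 917. Small spherical replicate 4 was again the highest of its group, and without it these differences were -0.66 and 0.17. Probe 42 was dim in filamentous embryos, at 3.01 to 6.25, with 3 or 4 distinct values of the array below it. TAGLN and ACTA2, actin cytoskeleton genes, MMP9, another gelatinase, and TIMP1 and TIMP3, inhibitors of metalloproteinases, had F test adjusted p of at least 0.699 (limma).

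**Figure D4:**
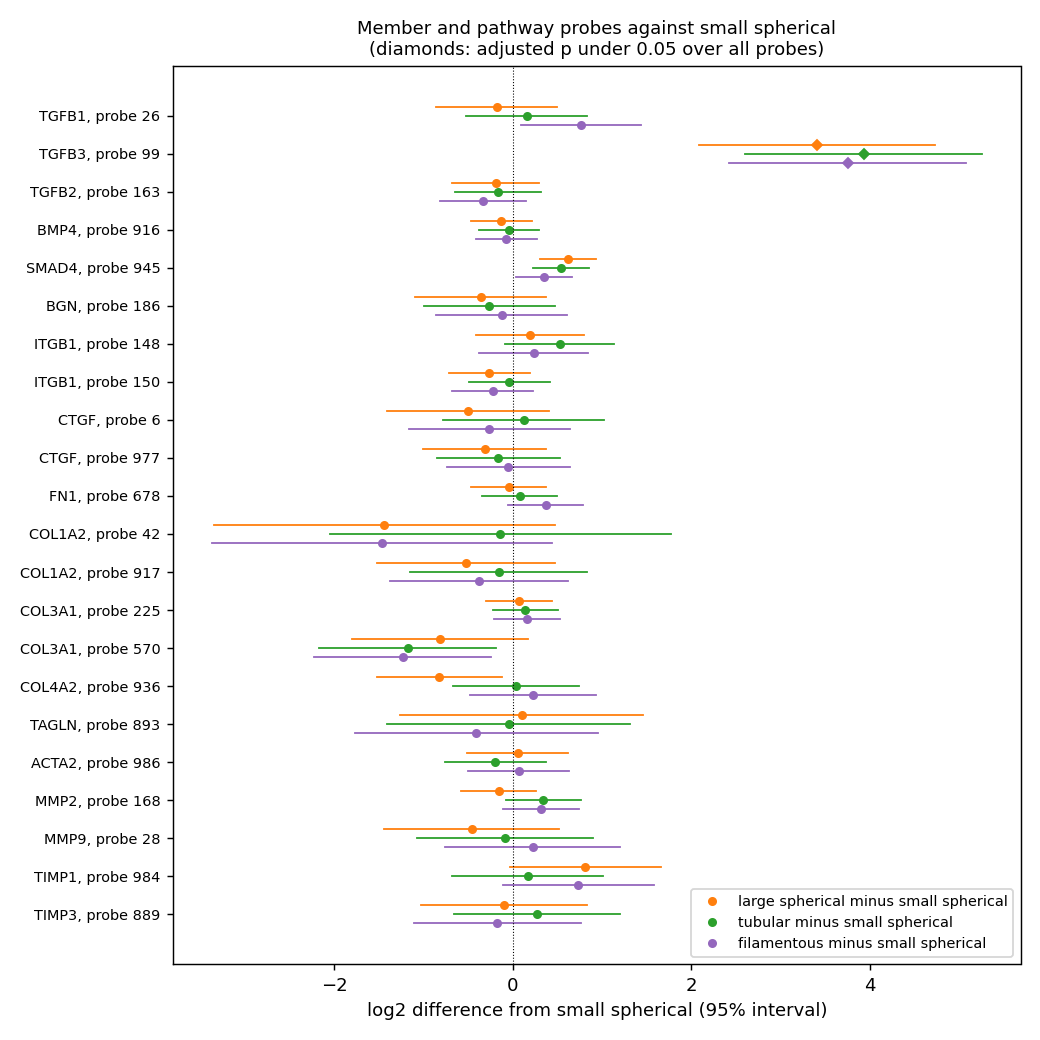
Difference from small spherical embryos on the log2 scale (horizontal axis) with 95% interval in large spherical (orange), tubular (green) and filamentous (purple) embryos for each member and pathway probe (vertical axis); diamonds mark adjusted p under 0.05 over 1014 probes. Diamonds appear for TGFB3 alone, and the other 21 probes have no interval that passed the adjusted test.

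The genes most like each member were taken as the 3 other named probes with the highest Pearson correlation of log2 values over the 16 arrays, which share stages and array numbers. For TGFB3 they were PLAC1, the trophectoderm marker above (0.945, Spearman 0.876), STAR, the cholesterol carrier of steroid synthesis (0.942, 0.806), and CITED1, a transcriptional coregulator (0.877, 0.941). Within stages, after each stage mean was taken off, the Pearson correlations were 0.819, 0.687 and 0.751. The genes were chosen by the correlation over all 16 arrays, so neither value is support of its own.

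For SMAD4 the likest were SOD1, a superoxide dismutase (Pearson 0.809), TGFB3 (0.785) and CALD1, the actin-binding caldesmon (0.785), with within-stage values of 0.385, 0.459 and 0.391. For TGFB1 they were ENO1, the glycolytic enolase (0.888), RAP1GDS1 (0.792) and RHOA, a small GTPase (0.787). Their within-stage values were 0.826, 0.788 and 0.727, close to those over all arrays. ENO1 averaged 59.8, 61.1, 62.5 and 82.4 in order of stage, highest in filamentous embryos as TGFB1 was. CTGF had RSRP1 (0.715), COL1A2 probe 42 (0.622) and COL1A2 probe 917 (0.619) on probe 6, and PIP4K2C (0.715), PDGFRB, a receptor of platelet-derived growth factor (0.685), and HMGN2 (0.671) on probe 977.

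**Figure D5:**
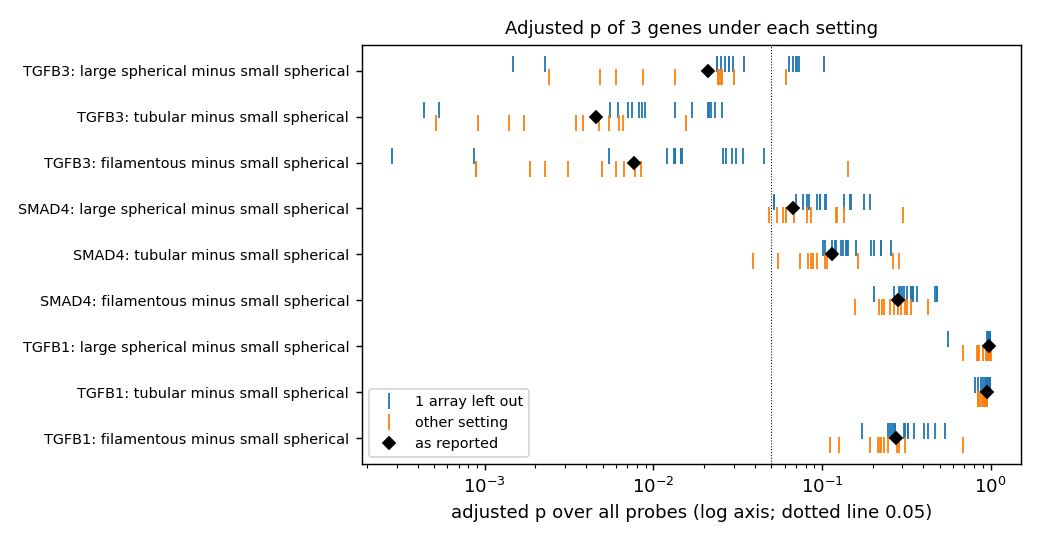
Adjusted p over all probes (horizontal log axis, dotted line at 0.05) for TGFB3, SMAD4 and TGFB1 against small spherical embryos (vertical axis); diamonds are the reported values, blue ticks the fits with 1 array left out and orange ticks the other settings. The setting without both small spherical replicate 3 and filamentous replicate 1 is not drawn. TGFB3 in tubular embryos is below 0.05 in each of the 27 settings drawn, and TGFB1 is above it throughout.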

How the data were processed

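The deposited table gave 1 linear intensity per probe for 1015 probes on 16 arrays, and 0 columns of values were left out. Per the labels, RNA was amplified, labelled with phosphorus-32 and hybridised to cDNA membranes; scanning, background correction, normalization and genome build are not given in the sources used here. Values ran from 0.12 to 805 on a regular grid (commonest step 0.815 to 1.67 per array). Array medians spanned 0.185 on the log2 scale, under a limit of 0.2, so log2 values entered the fit with no pseudocount or further normalization. The 1 probe constant on all arrays was left out. Of the probes, 676 had 1 gene symbol, 15 several and 324 none.

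All 16 arrays entered a limma fit of stage means (version 3.58.1, R 4.3.3; lmFit and eBayes), with an F test, 6 two-sided contrasts and Benjamini-Hochberg adjustment over 1014 probes at 0.05. The fit was tested on simulated data with independent noise and no difference by array number, so that test does not cover such differences. Members, lists and alternatives were chosen with earlier results of these data known. Named genes are all member probes, the measured genes of the pathway list and the 3 likest probes per member. Same-numbered arrays deviated together in all 4 pairs for large and small spherical embryos (correlations of 0.219 to 0.495). In each other comparison 2 or 3 of the 4 pairs had a correlation above 0.1, at most 0.469. The reported fit held no replicate term, and the replicate block changed no member's call. Plots used matplotlib 3.10.9.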

Additional observations from a re-analysis of the deposited data

Results flagged for a closer look

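In 10 of 88 groups of 4 arrays (22 probes by 4 stages) a single array stood apart from the other 3 by Dixon's criterion on linear intensities. Independent normal values meet it in about 1 group in 20. These groups share arrays, and linear intensities need not be normal, so the 10 cannot be set against that rate. For TGFB3 the arrays that stood apart were small spherical replicate 3, which read 14.5 against 1.79 to 3.91, large spherical replicate 1, which read 26.1 against 52.4 to 55.0, and filamentous replicate 1, which read 14.2 against 86.8 to 99.5. Arrays numbered 1 stood apart high for MMP9 in tubular embryos (58.1 against 20.4 to 26.6), for ITGB1 probe 148 in large spherical embryos (37.1 against 15.6 to 18), for TIMP3 in tubular embryos (70.5 against 16.3 to 20.7) and for COL1A2 probe 917 in large spherical embryos (29.8 against 14.7 to 15.6). Small spherical replicate 4 stood apart high for COL3A1 probe 570 (56.2 against 14.5 to 17.3) and COL1A2 probe 917 (81.3 against 12.6 to 22.7). Filamentous replicate 4 read 31.4 for BGN against 13.8 to 16. No cause was tested.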

How the results depend on the processing

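Each fit was repeated under 13 other settings and with each of the 16 arrays left out. The signs of all TGFB3 and SMAD4 differences from small spherical embryos were the same in every setting that held the probe. Where the stages did not overlap, leaving out or weighting arrays or adding the offset could not change the sign, so those settings do not test it. No TGFB1 or CTGF difference passed in any setting. TGFB3 and CTGF probe 6 are among the dimmest 25% of probes and have no value without those. With only the stages compared in the fit, TGFB3 lost its call in large spherical (log2 3.41, adjusted p = 0.0608) and filamentous embryos (3.75, 0.143) against small spherical ones. SMAD4 gained one in large spherical embryos with a variance trend and robust prior (0.62, 0.0482) or without the pair of small spherical replicate 3 and filamentous replicate 1 (0.64, 0.0468), and in tubular embryos with array weights (0.54, 0.0392).

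Differences under the threshold that changed sign were TGFB3, filamentous minus tubular, with array weights (0.12), on the arrays numbered 2 to 4 (0.55) and without that pair (0.49); SMAD4, tubular minus large spherical, with quantile (0.0118) and cyclic loess normalization (0.0148); TGFB1, tubular minus small spherical, with the trend along probe number removed (-0.16); CTGF probe 6, tubular minus small spherical, with array weights (-0.0099), on the arrays numbered 2 to 4 (-0.15) and with the trend removed (-0.44), and filamentous minus large spherical with the trend removed (-0.19); and CTGF probe 977, filamentous minus tubular, without the pair (-0.11).

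With 1 array left out, the TGFB3 difference from small spherical ran from 2.99 to 4.00 in large spherical and 3.33 to 4.42 in filamentous embryos, and its F test adjusted p from 0.000538 to 0.069, above the threshold without small spherical replicate 1 (0.0652), 2 (0.069) or 4 (0.0605). Signs varied for TGFB3 filamentous minus tubular (-0.45 to 0.49), TGFB1 tubular minus small spherical (-0.0286 to 0.30), CTGF probe 6 tubular minus small spherical (-0.0821 to 0.37), filamentous minus small spherical (-0.47 to 0.18) and filamentous minus tubular (-0.64 to 0.0564), and CTGF probe 977 filamentous minus small spherical (-0.28 to 0.17), tubular minus large spherical (-0.0215 to 0.45) and filamentous minus tubular (-0.11 to 0.33).

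Counts of probes past the threshold moved more. The F test count of 4 was 2 without the dimmest probes, 10 with the replicate block, 7 with array weights, 17 without the pair, 10 with a term for the arrays numbered 1, and 1 to 13 with 1 array left out (1 without small spherical replicate 2, 13 without replicate 3, 2 without replicate 4). For large minus small spherical (4) it was 7, 9 with a variance trend, 36 without the pair, 7 with the term, and 1 to 26 (26 and 11 when small spherical replicate 3 and filamentous replicate 1, respectively, were dropped, and 1 when replicate 2 or 4 of the small or replicate 2, 3 or 4 of the large spherical group was dropped). For tubular minus small spherical (4) it was 13 without the dimmest probes, 13 with the offset, 11 with the replicate block, 29 with array weights, 14 with a variance trend, 29 without the pair, and 3 to 16 (16 without small spherical replicate 3, 8 without filamentous replicate 1). For filamentous minus small spherical (9) it was 15 with the replicate block, 2 with only these stages, 31 without the pair, 14 with the term, and 3 to 28 (28 without small spherical replicate 3, and 3 and 4 when filamentous replicates 3 and 4 were dropped). The term was added after the data were seen. The replicate block changed no member's call; at the step to large spherical TGFB3 had an adjusted p of 0.00603 with it and SMAD4 one of 0.0686. Of 2898 pathway values in other settings 166 had another sign and 0 passed. For TGFB3 the pair holds the only overlapping arrays, so its setting says nothing of stability. The causes were not tested.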
